A study of Mus musculus with 6 samples.

Results

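Interferon-stimulated genes are the genes that a cell switches on when interferon, a secreted warning signal of viral infection, reaches its receptor. The set described here holds 45 listed mouse genes, taken by name with older symbols resolved (Tmem173 is Sting1), and read on microarrays of NIH3T3 cells, an established line of mouse embryonic fibroblasts. Probes carried transcript accessions and were named through RefSeq, which gave 41 of the 45 genes at least 1 probe. Of these, 31 were bright enough to be tested, among 23774 genes or unnamed transcripts tested on the whole array.

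The series compared cells made to express GGCT (gamma-glutamylcyclotransferase, an enzyme of glutathione breakdown) with cells carrying the control vector, on 3 arrays each. Every culture had been through retroviral infection with the same type of vector, pCX4bsr, and was grown in 2% serum, so the control cells also carry a retroviral vector. The labels describe the establishment of the lines once and number the experiments 1 to 3. Whether each experiment started from its own infection is not said, and the p-values reflect only how far these experiments differ from each other. Whether the mouse Ggct probe reads the introduced sequence cannot be settled from the labels. Ggct stood between -0.72 and -0.57 on the control arrays and between -0.16 and 0.20 on the GGCT arrays, a 1.53-fold difference (limma adjusted p = 0.0111; between 0.0755 and 0.108 with the pair of arrays numbered 2, or that numbered 3, left out).

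In this pathway, sensors such as RIG-I (Ddx58) and MDA5 (Ifih1) bind viral RNA in the cytosol and signal through MAVS to the factors IRF3 and IRF7, which switch on interferon genes. Secreted type I interferon binds the receptor pair IFNAR1 and IFNAR2, whose kinases JAK1 and TYK2 activate STAT2 among others. STAT2 and IRF9 belong to the complex ISGF3, which binds the interferon-stimulated response element in promoters and turns on effectors such as ISG15, the IFIT proteins and the oligoadenylate synthetases. Fibroblasts are producers of interferon-beta and respond to it.

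The called genes went both ways with GGCT. Ifit3 (3.00-fold), Ifitm3 (2.94-fold), Gbp3, Oas1a, Isg15, Ifnar2, Irf9, Ifi35, Ifi27, Ddx58, Irf2 and Trim21 were lower, whereas the regulator Irf7, the transducer Stat2, the adaptor Mavs and the kinase Eif2ak2 were higher, by 3.36-fold for Irf7 and by less than that for the other 3. Of the 31 tested genes, 12 were called lower and 4 higher at an adjusted p under 0.05, and 15 did not pass. Among the 28 members above background on all 6 arrays, 10 were called lower and 4 higher when the test was limited to such genes, where 34.4% of all genes were called; the lower genes it leaves out are Gbp3 and Oas1a. Called genes made up 51.6% of the tested members, where 34.8% of all genes tested on the array were called. The share called lower was 38.7%, beside 17.3% over the array, and the share called higher was 12.9%, beside 17.5%. The median difference of the tested members was -0.13 (log2, GGCT minus control), beside 0.02 for all genes tested. It was -0.10 on slide 1, which held replicate 1 of both groups, and -0.30 on slide 2, which held replicates 2 and 3. A fit that blocks on replicate number called 6 members higher and 13 lower, beside 27.3% and 26.1% of all genes. Differences of at least 2-fold were called for 3 members downward, where 5.3% of all genes tested were, and for 1 upward, where 3.63% were.

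Leaving out any of the arrays named here lowered the calls among the members and over the whole array, while leaving out both arrays of replicate 1 gave 17 called members (54.8%, beside 38.1% of all genes). Without control replicate 2, 1 member was higher and 8 lower (28.1% of those tested, beside 23.8% of all genes). Without control replicate 3 the counts were 2 and 8 (30.3%, beside 21.2%), and without GGCT replicate 3 they were 1 and 7 (24.2%, beside 22.9%). Without both arrays of replicate 2, the calls of Ifit3, Ifitm3, Ifnar2, Irf7, Irf9 and Stat2 remained (18.8%, beside 12.3%). Without both arrays of replicate 3, those of Gbp3, Ifit3 and Ifitm3 remained (8.82%, beside 7.15%). With no filter on dim probes, calls remained for 8 of the 16: Gbp3, Ifi27, Ifit3, Ifitm3, Ifnar2, Irf7, Irf9 and Isg15 (19.5% of members, beside 10.5% of all genes). Scaling to each array's median (the median shift below) left 2 members higher, Irf7 and Stat2, and 12 lower (45.2%, beside 32.9% of all genes). Every called member kept its direction in each of these settings.

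**Figure D1:**
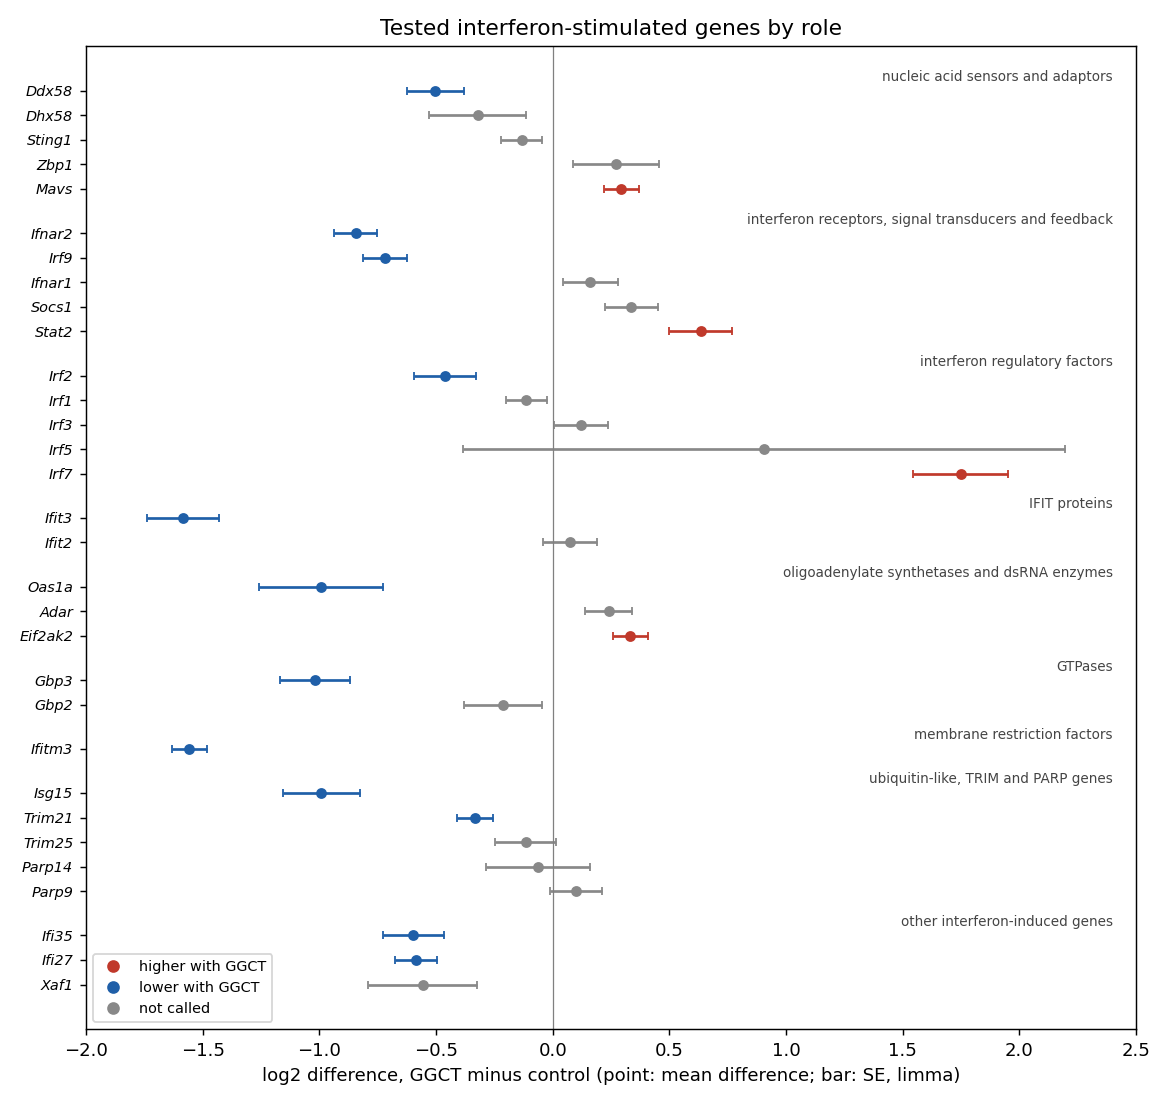
Log2 differences, GGCT minus control (horizontal axis), for the 31 tested interferon-stimulated genes grouped by role. Points are mean differences over 3 against 3 arrays, bars are the SE from limma, and colours give the call. Ifit3 lies furthest to the left at -1.58 and Irf7 furthest to the right among called genes at 1.75, and the wide bar of Irf5 comes from values that differ between its 3 GGCT arrays.

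All values that follow are log2 signals relative to the array's 75th percentile, so 0 is the level of a probe at that percentile, and they are listed for replicates 1, 2 and 3 in that order. A level belongs to its probe and is not compared between genes. Control and GGCT values were fully separated for 19 of the 31 tested members (61.3%, beside 49.3% of all genes tested), among them all 16 called ones. Each of the 16 had p = 0.1 in a 2-sided exact permutation test, which cannot go lower with 3 arrays against 3. That test took the 6 arrays as unpaired and did not use the replicate numbers. In a bulk extract, fewer expressing cells and less RNA per cell cannot be told apart.

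**Figure D2:**
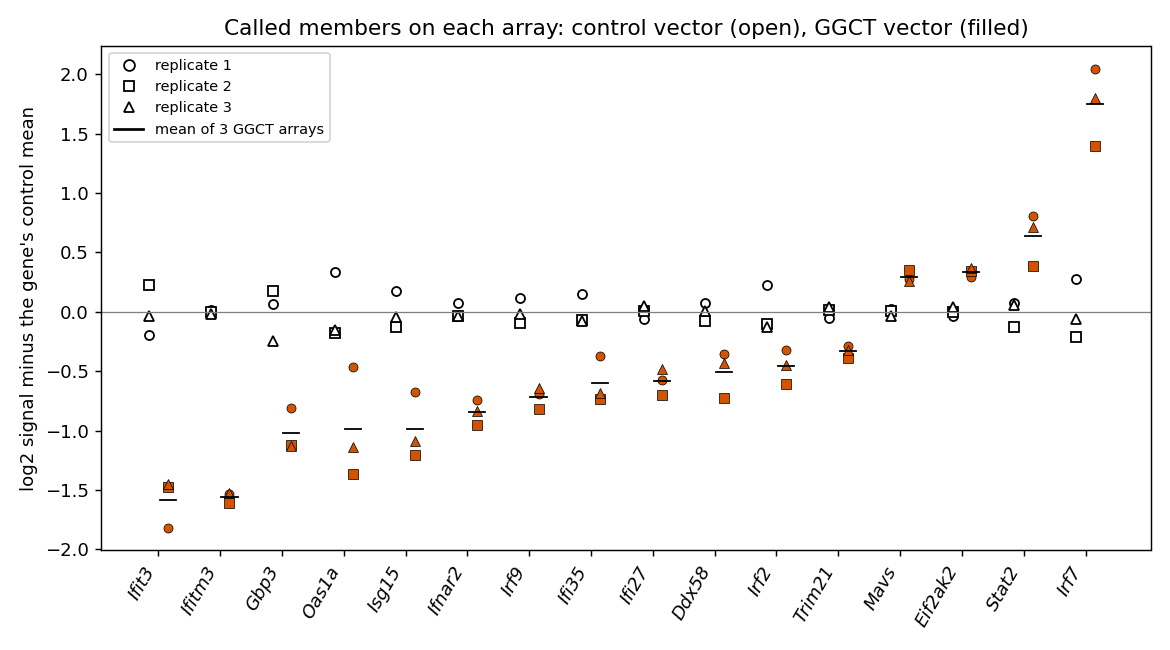
Log2 signal of each called member on each of the 6 arrays, after subtraction of that gene's control mean (vertical axis), with genes ordered by difference along the horizontal axis. Open symbols are control arrays, filled symbols GGCT arrays, the shape gives the replicate number and the short line the GGCT mean. The groups are separate for each of the 16 genes and the points of Ifitm3 lie close together: its GGCT arrays lie between 3.95 and 4.03 and its control arrays between 5.54 and 5.57 before the subtraction.

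Among the nucleic acid sensors and adaptors, Ddx58, which encodes the RNA helicase RIG-I, was lower with GGCT. Its brightest probe read 0.85, 0.69 and 0.78 on the control arrays and 0.42, 0.04 and 0.34 on the GGCT arrays, so every GGCT array lay under every control array. The difference was -0.50 ± 0.12 (SE, n = 3 against 3; adjusted p = 0.0226). It had 4 probes, of which another 2 were above background on all arrays and were also lower, with differences of -0.60 and -0.92. The call was lost when any control array or GGCT replicate 3 was left out (adjusted p between 0.0542 and 0.0793). Mavs, the mitochondrial adaptor downstream of RIG-I, was higher. It read 1.76, 1.75 and 1.71 in control cells and 2.01, 2.09 and 2.00 with GGCT, a small difference of 0.29 ± 0.08 (adjusted p = 0.0275) between tight and separate groups. Leaving out any single array ended this call (adjusted p between 0.055 and 0.118), as did the median shift (adjusted p = 0.0953).

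The remaining sensors did not pass the test. Dhx58 (LGP2, a RIG-I relative without signalling domains) differed by -0.32 (adjusted p = 0.282), Zbp1, a sensor of Z-form nucleic acid, by 0.27 (adjusted p = 0.314) and Sting1, the adaptor of the cytosolic DNA sensor cGAS, by -0.13 (adjusted p = 0.293). For Zbp1, control replicate 1 was the lowest array: slide 1 gave 0.77 and slide 2 gave 0.02. Ifih1, which encodes MDA5, was not well above background on any array.

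The receptor and signal transducers split. Ifnar2, a chain of the type I interferon receptor, was lower: 2.12, 2.00 and 2.00 in control cells against 1.30, 1.09 and 1.20 with GGCT, a fall of 1.79-fold (-0.84 ± 0.09, adjusted p = 0.00131). The groups lay well apart with -0.82 on slide 1 and -0.86 on slide 2. A second, dimmer Ifnar2 probe differed by -0.45 and missed the threshold (adjusted p = 0.0841 with every probe tested). The other chain, Ifnar1, did not pass on its brightest probe (0.16, adjusted p = 0.344), and its other probes pointed the other way (-0.25 and -0.57) without passing.

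Irf9, the DNA-binding part of ISGF3, was lower. It read 0.97, 0.76 and 0.84 in control cells and 0.17, 0.04 and 0.21 with GGCT, a difference of -0.72 ± 0.10 (adjusted p = 0.00273), and its other probe, assigned to another transcript accession, differed by -0.65. Stat2, its partner, was higher. It read 1.74, 1.54 and 1.73 in control cells and 2.48, 2.06 and 2.39 with GGCT, a 1.55-fold difference (0.63 ± 0.14, adjusted p = 0.0148). Replicate 2 was the lowest of both groups for Stat2, and the groups stayed separate. The Stat2 call was lost without control replicate 2 or without GGCT replicate 3 (adjusted p between 0.0562 and 0.0594). It was also lost with the mean of its probes (0.68, adjusted p = 0.104). Its dimmer second probe, above background on 2 control and 3 GGCT arrays, was also higher, by 0.72, without passing (adjusted p = 0.26 with every probe tested). Ifnar2 and Irf9 lost theirs only when both arrays of replicate 3 were left out (adjusted p = 0.0547 and 0.0672).

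The feedback genes gave less. Socs1, an inhibitor of JAK kinases, read 2.31, 2.02 and 2.10 in control cells and 2.61, 2.39 and 2.43 with GGCT. Its groups did not overlap and the difference of 0.34 missed the threshold (adjusted p = 0.0641), but passed when replicate number was a block (adjusted p = 0.00918; 0.00521 to 0.32 over the alternatives). Usp18, which removes ISG15 from proteins and blocks IFNAR2, was dim, above background on 2 arrays of each group, and was not tested.

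Among the interferon regulatory factors, Irf7, the factor that amplifies interferon production, showed the largest increase of the set. It read -2.71, -3.20 and -3.04 in control cells and -0.94, -1.59 and -1.18 with GGCT. Every GGCT array was above every control array by more than 1 log2 unit, and the fold was 3.36 (1.75 ± 0.20, adjusted p = 0.00172; 1.77 on slide 1 and 1.74 on slide 2). The size depends on the probe and on the background: a dimmer second probe, above background on 1 array of each group, differed by 0.38, the mean of both probes by 1.06 (adjusted p = 0.174), and with normexp background, taken on median spot signals with an offset, the difference was 0.94. Without both arrays of replicate 3 it was 1.69 (adjusted p = 0.0547).

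Irf2, mostly a repressor that competes with IRF1 for the same sites, was lower. It read -0.15, -0.48 and -0.51 in control cells and -0.71, -0.99 and -0.83 with GGCT (-0.46 ± 0.13, adjusted p = 0.0409). The call was lost when any of the 5 arrays other than GGCT replicate 1 was left out (adjusted p between 0.0722 and 0.115). Irf1 differed by -0.11 (adjusted p = 0.368) and Irf3, the factor that MAVS activates directly, by 0.12 (adjusted p = 0.477), neither past the threshold. Irf5 read -3.45, -4.39 and -3.51 in control cells and 0.25, -4.34 and -4.55 with GGCT. A single array, GGCT replicate 1, stood far above the other 5, so slide 1 gave 3.70 and slide 2 gave -0.49, and no call was made in any of the 19 alternatives that tested it. Irf8, a factor of blood cell lineages, was not well above background on any array.

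The largest decreases were among the effectors. Ifit3, a member of the IFIT family that binds and blocks foreign RNA, read -1.18, -0.76 and -1.02 in control cells and -2.80, -2.47 and -2.44 with GGCT. The groups were more than 1 log2 unit apart, and the fall was 3.00-fold (-1.58 ± 0.15, adjusted p = 0.000922). With normexp background it was -1.05. A near-identical neighbour, Ifit3b, has its own probe and fell as well (-2.78 ± 0.22, adjusted p = 0.000415; -1.25 with normexp background), and how far each probe reads the other gene's transcript was not tested. Ifit2, of the same family, differed by 0.07 (adjusted p = 0.668), with overlapping groups. Ifit1 was above background on 2 arrays of each group and was not tested.

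Ifitm3, a membrane protein that stops viruses from fusing in endosomes, had the smallest adjusted p of the set. It read 5.57, 5.55 and 5.54 in control cells and 4.02, 3.95 and 4.03 with GGCT, a fall of 2.94-fold (-1.56 ± 0.07, adjusted p = 7.86e-05), and both slides gave -1.56. Ifit3 and Ifitm3 were the only called members that passed the threshold in all 20 alternatives run.

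Isg15, a ubiquitin-like protein that is attached to other proteins during the interferon response, read 3.59, 3.28 and 3.37 in control cells and 2.73, 2.20 and 2.33 with GGCT. Both groups were highest in replicate 1 and did not overlap, and the fall was 1.99-fold (-0.99 ± 0.17, adjusted p = 0.00612). It was lost when both arrays of replicate 2 or of replicate 3 were left out (adjusted p between 0.0632 and 0.099). Of its neighbours in the group, Trim21, a ubiquitin ligase that binds antibody-coated virus, was slightly lower: -1.02, -0.96 and -0.93 against -1.26, -1.36 and -1.29 (-0.33 ± 0.08, adjusted p = 0.0197). Its call was lost without replicate 2 or replicate 3 of either group (adjusted p between 0.0564 and 0.0917). Trim25, the ligase that activates RIG-I, differed by -0.12, Parp9 by 0.10 and Parp14 by -0.06 (adjusted p = 0.547, 0.538 and 0.855), all with overlapping groups. With the mean of their probes Parp9 and Parp14 changed sign (-0.14 and 0.17), but the second probe of each was not above background on any array.

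Ifi27, a small membrane protein, and Ifi35, a leucine zipper protein, fell by similar amounts. Ifi27 read 5.09, 5.15 and 5.19 in control cells and 4.57, 4.45 and 4.66 with GGCT (-0.59 ± 0.09, adjusted p = 0.00457), and a second probe, assigned to another accession, differed by -0.77. Ifi35 read 3.19, 2.97 and 2.96 against 2.66, 2.31 and 2.35 (-0.60 ± 0.13, adjusted p = 0.0156), with -0.57 on its other probe. In each case every GGCT array was under every control array. The Ifi35 call was lost without GGCT replicate 2 or GGCT replicate 3 (adjusted p between 0.0517 and 0.0623). Xaf1, a pro-apoptotic interferon target, had overlapping groups and missed the threshold (-0.56, adjusted p = 0.117), which it passed with the block on replicate number (adjusted p = 0.0355; 0.0177 to 0.427 over the alternatives). Its second probe, tested on its own, was lower (-0.62, adjusted p = 0.0186). Ifi44 was above background on 2 control arrays and 1 GGCT array and was not tested.

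Among the enzymes of double-stranded RNA, Oas1a, which makes the oligoadenylates that activate RNase L, was dim and lower. It read -3.25, -3.76 and -3.74 in control cells and -4.05, -4.95 and -4.72 with GGCT, where it was above background on 1 of 3 arrays (-0.99 ± 0.27, adjusted p = 0.0313). It entered the test through the control arrays alone, where it is higher, and did not pass with no filter (adjusted p = 0.0934). The difference was -0.41 with normexp background, and the call was lost when any of the 5 arrays other than GGCT replicate 1 was left out (adjusted p between 0.0649 and 0.103). Oas1a has close copies whose transcripts its probe may also read. Eif2ak2, the kinase PKR that stops translation when it binds double-stranded RNA, was higher in tight groups: 0.99, 1.03 and 1.07 against 1.32, 1.37 and 1.39 (0.33 ± 0.07, adjusted p = 0.0176). That call was lost without any 1 of the control arrays or GGCT replicate 3 (adjusted p between 0.0519 and 0.0731) and with the median shift (adjusted p = 0.0586). Adar, an enzyme that edits adenosine in such RNA, had groups that did not overlap, and its difference of 0.24 missed the threshold (adjusted p = 0.113) but passed with the block on replicate number (adjusted p = 0.0344; 0.0206 to 0.488 over the alternatives). A dimmer Adar probe, assigned to another accession and tested on its own, was higher (0.69, adjusted p = 0.00927). Oas2, Oasl1 and Oasl2 were above background on 1 or 2 of the 6 arrays, and Oas3 on none, so none of them was tested.

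Of the GTPases, Gbp3, a guanylate-binding protein, was dim and lower. It read -3.67, -3.56 and -3.98 in control cells and -4.55, -4.86 and -4.87 with GGCT, where 1 of 3 arrays was above background (-1.02 ± 0.15, adjusted p = 0.00394; -0.34 with normexp background). It too entered the test through the control arrays alone, and its adjusted p was 0.0194 with no filter. The size of the difference is set against a level mostly not above background. It was lost without both arrays of replicate 2 (adjusted p = 0.068). Its relative Gbp2 differed by -0.21 (adjusted p = 0.381) with overlapping groups. Rsad2, which encodes the antiviral enzyme viperin, was not well above background on any array. Mx1, Mx2, Bst2 and Ifitm2 had no probe that could be named and were not analysed here.

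In all, 14 members were not tested: the 4 without a named probe, 4 below that level on all arrays (Ifih1, Irf8, Oas3 and Rsad2, with signals between -7.30 and -6.44) and 6 that were above it on some arrays but on all 3 of neither group (Usp18, Ifit1, Oas2, Oasl1, Oasl2 and Ifi44). For these the arrays give no difference.

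**Figure D3:**
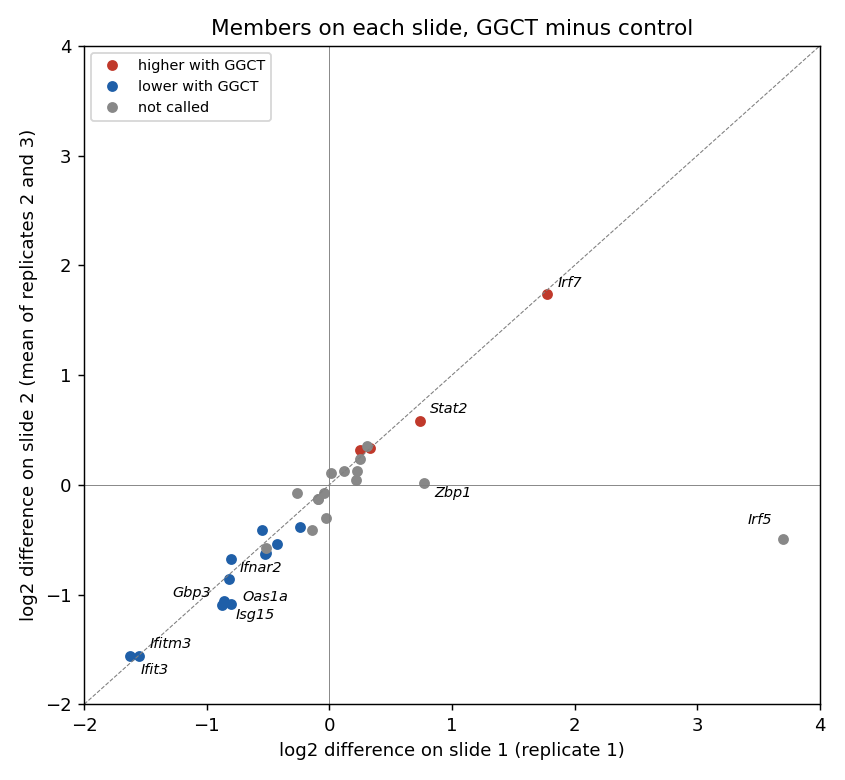
Log2 difference of each of the 31 tested members on slide 1 (replicate 1, horizontal axis) against the mean difference on slide 2 (replicates 2 and 3, vertical axis), coloured by call, with the dashed line marking equal values. All 16 called genes lie either below 0 or above 0 on both slides, and Irf5 lies apart at 3.70 on slide 1 and -0.49 on slide 2.

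The promoters of these genes were searched for letters like those of the interferon-stimulated response element, GAAA, any 2 bases and GAAA again, on either strand (the element is bound by ISGF3). RefSeq promoter windows (build GRCm38.p6, 250 bases before to 50 after the start site) were found for 35 of the 45 members, 42 windows in all. The letters occurred in 18 of the 42 windows (42.9%), beside 3.44% of all 32851 windows of that length. They were present for 8 of the 11 genes called lower that had a window, 2 of the 4 called higher, 2 of the 10 tested and not called, and 6 of the 10 not tested. Genes with these letters were thus found among those that fell and those that rose, as well as among those not called and not tested. Isg15 held 3 matches. The second element, TTCNNNGAA, which has the shape of the gamma-activated sequence of interferon-responsive promoters, was found in 12 of the 42 windows (28.6%), beside 8.3% of all windows. Of 5 member windows with both elements, 2 had matches that share bases. A match is a description of the letters and does not show binding.

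Windows are shown for called members with these letters in each direction: Ifit3, Ifitm3 and Gbp3 have the largest differences of the 8 lower ones, and Stat2 and Eif2ak2 are the only higher ones that hold them. The windows of Irf7, the largest riser, and Mavs hold no match. Those of Isg15, Oas1a, Trim21, Ddx58 and Irf2 hold the letters and are not shown. They are written 5′ to 3′ on the gene's strand with the matches in capitals.
Ifit3: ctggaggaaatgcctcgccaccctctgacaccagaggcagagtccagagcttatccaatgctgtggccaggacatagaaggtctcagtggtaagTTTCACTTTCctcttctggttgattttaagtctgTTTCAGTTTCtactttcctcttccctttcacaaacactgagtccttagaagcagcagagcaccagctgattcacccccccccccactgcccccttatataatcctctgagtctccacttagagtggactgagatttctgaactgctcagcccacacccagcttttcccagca
Ifitm3: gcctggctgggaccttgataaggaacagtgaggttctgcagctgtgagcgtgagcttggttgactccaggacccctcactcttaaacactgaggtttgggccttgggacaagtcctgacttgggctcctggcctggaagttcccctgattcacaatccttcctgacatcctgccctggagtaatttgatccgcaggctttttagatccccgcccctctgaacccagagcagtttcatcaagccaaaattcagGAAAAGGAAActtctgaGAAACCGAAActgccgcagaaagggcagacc
Gbp3: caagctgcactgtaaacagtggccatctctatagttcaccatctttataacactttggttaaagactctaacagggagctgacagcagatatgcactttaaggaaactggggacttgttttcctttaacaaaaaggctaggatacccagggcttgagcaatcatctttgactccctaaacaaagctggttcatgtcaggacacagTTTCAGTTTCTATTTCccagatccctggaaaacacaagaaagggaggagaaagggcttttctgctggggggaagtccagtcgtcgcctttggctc
Stat2: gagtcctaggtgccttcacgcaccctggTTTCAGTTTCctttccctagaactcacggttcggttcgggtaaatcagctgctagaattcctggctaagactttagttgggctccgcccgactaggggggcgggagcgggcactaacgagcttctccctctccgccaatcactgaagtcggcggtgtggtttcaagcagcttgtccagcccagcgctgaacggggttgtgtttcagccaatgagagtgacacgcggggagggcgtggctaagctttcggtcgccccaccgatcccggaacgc
Eif2ak2: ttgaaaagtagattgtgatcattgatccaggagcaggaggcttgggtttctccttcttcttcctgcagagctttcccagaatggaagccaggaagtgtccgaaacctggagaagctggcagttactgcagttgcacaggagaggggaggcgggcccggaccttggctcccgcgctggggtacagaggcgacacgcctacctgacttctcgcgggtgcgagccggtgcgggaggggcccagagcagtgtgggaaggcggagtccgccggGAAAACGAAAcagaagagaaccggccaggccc
They lie at chr19:34583279-34583578 (plus strand, Ifit3), chr7:141010695-141010994 (minus, Ifitm3), chr3:142559794-142560093 (plus, Gbp3), chr10:128270248-128270547 (plus, Stat2) and chr17:78882523-78882822 (minus, Eif2ak2). Ifit3, Ifitm3 and Gbp3 hold 2 matches each, which in Gbp3 share bases, and Stat2 and Eif2ak2 hold 1. The matches of Ifitm3 and Eif2ak2 lie after the start site and those of the other 3 before it.

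Genes of the pathway outside the set were read from 3 lists. Of 19 genes of interferon ligands, receptors and JAK-STAT signalling, 15 were tested, and 5 were higher and 5 lower (66.7% called, beside 34.8% of all genes tested, of which 17.5% were higher and 17.3% lower). Ifnb1, the interferon-beta gene, was not well above background on any array. Ifnk, the gene of interferon-kappa, a type I interferon best known from skin, was above background on no control array and on all 3 GGCT arrays, and was at least 2.20-fold higher (log2 difference 0.33 with normexp background). It entered the test through the GGCT arrays alone, and its adjusted p with no filter was 0.00262. Below the receptor, the kinases Jak1 (-0.57 ± 0.09, adjusted p = 0.0047) and Tyk2 (-0.64 ± 0.08, adjusted p = 0.0024) were lower, both losing the call without both arrays of replicate 3 and Jak1 also without those of replicate 2 (adjusted p between 0.0703 and 0.107). Ifngr1, a chain of the interferon-gamma receptor, fell by a smaller amount (-0.32, adjusted p = 0.024), lost when any of the 5 arrays other than GGCT replicate 1 was left out (adjusted p between 0.0624 and 0.0995), and its partner Ifngr2 missed the threshold (-0.23, adjusted p = 0.126; 0.0226 to 0.514 over the alternatives, the lowest of them with a block). Socs3, a feedback inhibitor of cytokine signalling, rose (0.70 ± 0.09, adjusted p = 0.00274).

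Of the 2 members that belong to ISGF3, Irf9 was lower and Stat2 higher on both slides. For Irf9 slide 1 gave -0.81 and slide 2 gave -0.67, and for Stat2 0.74 and 0.58.

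Of 25 genes of sensing and induction, 21 were tested, 4 higher and 4 lower (38.1% called, near the 34.8% over the array). The toll-like receptors Tlr4, for bacterial lipopolysaccharide (-1.60 ± 0.11, adjusted p = 0.000307), and Tlr3, for double-stranded RNA (-1.17 ± 0.11), fell, as did the adaptor Myd88 (-0.69 ± 0.10, adjusted p = 0.0042). Tlr3 was above background on 3 control arrays and 1 GGCT array, so it entered the test through the control arrays alone. Its adjusted p with no filter was 0.00607, and it differed by -0.39 with normexp background. Cgas (Mb21d1), the cytosolic DNA sensor, rose (0.68 ± 0.12, adjusted p = 0.00803) and so did Traf3, a ubiquitin ligase downstream of MAVS (0.74 ± 0.12, adjusted p = 0.00517). Without both arrays of replicate 3 the calls of Traf3 (adjusted p = 0.0906), Cgas (0.068), Myd88 (0.0922) and, in the list before, Socs3 (0.0778) were lost, and without those of replicate 2 so were Cgas (0.109) and Myd88 (0.0565).

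Of 50 further interferon-stimulated genes, 36 were tested, of which 16 were lower and 2 higher, beside 17.3% lower and 17.5% higher over the array. Their median difference was -0.28. Trim30a, a member of the tripartite motif family, fell 11.9-fold (-3.57 ± 0.14, adjusted p = 4.22e-05; -1.97 with normexp background), Apol9b 2.30-fold (-1.20 ± 0.08, adjusted p = 0.000225) and Rtp4, a chaperone of cell surface receptors, 1.75-fold (-0.81 ± 0.08, adjusted p = 0.0011), beside Ifit3b given above.

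**Figure D4:**
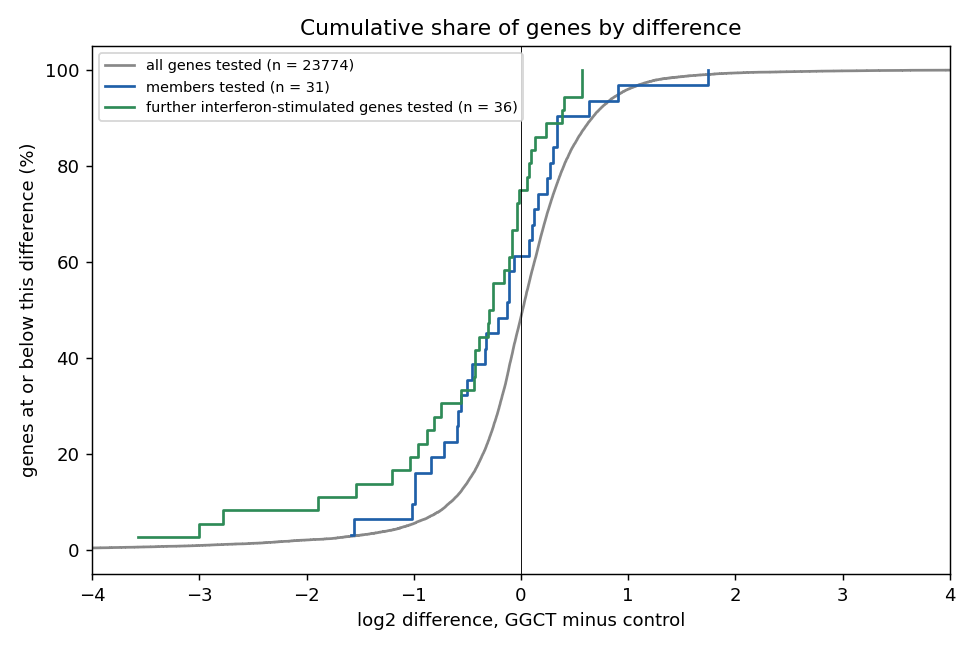
Share of genes (vertical axis, percent) with a log2 difference, GGCT minus control, at or below the value on the horizontal axis, for all 23774 genes tested, the 31 tested members and the 36 further interferon-stimulated genes tested. The medians are 0.02, -0.13 and -0.28, and the step furthest right in the members' curve is Irf7 at 1.75.

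The share of probes marked well above background ran from 54.6% to 61.7% over the 6 arrays, and the 75th percentile of the processed signal was 380.0 to 471 units. The cell type was checked by markers. Of 12 fibroblast markers, 11 were above background on all 6 arrays, and Fap was on none. Their summed signal, in units of the array's 75th percentile, was 2097 to 2528 in control cells and 1648 to 2035 with GGCT. Col1a1, Col1a2, Col3a1, Col5a1 and Pdgfrb were lower and Pdgfra and Dcn higher. Such a sum adds levels of different probes, so the brightest weigh most. It does not measure the share of a cell type. Of 9 macrophage and leukocyte markers, 5 were above background on all arrays, and the defining ones Ptprc, Adgre1 and Lyz2 were on none. Their sum was 26.5 to 36.0 in control cells and 26.2 to 32.4 with GGCT, with Cd68 lower. Of 5 endothelial markers 1 and of 5 epithelial markers 2 were above background on all arrays, and Kdr, Tek, Epcam and Cdh1 were on none. The endothelial gene Cdh5 was above background on no control array and on all 3 GGCT arrays (at least 2.18-fold higher), and Vwf on all 3 control arrays and no GGCT array (at least 1.44-fold lower). Pecam1 was higher (0.43), as was the keratin gene Krt8 (1.18), and Krt14 was lower (-1.46). Their sums were 0.181 to 0.215 and 0.310 to 0.323 in control cells, and 0.243 to 0.288 and 0.290 to 0.407 with GGCT. The part of the marker shifts in the results above was not tested.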

How the data were processed

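RNA of 6 NIH3T3 cultures was labelled with Cy3 and hybridised to 1-colour Agilent arrays, per the labels. The authors deposited spot intensities. Per the file headers these were read by Feature Extraction 12.1.0.3 (Agilent), whose statistics record background-subtracted signals and spatial and multiplicative detrend fits. The deposited series table holds log2 values, equal to the log2 processed intensity minus a constant per array. Precision is limited by having 3 arrays a group, and signal over background limits the dim probes.

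Control spots and 578 spots flagged as outliers were dropped and the spots of a probe averaged. Log2 processed intensity minus each array's 75th percentile was used. RefSeq accessions named 34504 of 56570 probes (60.99%). Each gene took the values of its brightest probe, and entered the test where the software marked this probe well above background on every array of at least 1 group. Groups came from the sample titles. Differences (GGCT minus control) were tested over all 23774 genes with limma 3.58.1 in R 4.3.3 (2-sided, Benjamini-Hochberg, threshold 0.05), without a block. The procedure was also tested on simulated data, the outcome of which is not given here. A bound for a gene not above background in 1 group is the bright group's mean over, per array of the other, the higher of its own value and the lowest value well above background.

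Deviations from the group means correlated between arrays of the same number (0.731, 0.453 and 0.358 for numbers 1, 2 and 3). Between numbers 2 and 3, which share a slide, the correlations were 0.299 and 0.342. On that slide, pairing by number and the shared slide can hardly be told apart. The titles' numbers were taken as pairs in the replicate block, which is an alternative, and the main fit did not use them. Replicate 1 was on slide 1 and replicates 2 and 3 on slide 2. The 20 alternatives were 2 other scalings, normexp background (offset 50, on median spot signals), the deposited values, 2 other filters, 2 other treatments of probes, a block on replicate number or on slide, another variance prior, and leaving out each array or number. All members are named, and outside the set 8 genes given by name (1 of them is not reported here) and up to 4 called genes of each list with the smallest p. The members and lists were chosen with earlier results of these data known.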

Additional observations from a re-analysis of the deposited data

How the results depend on the processing

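Over 20 alternatives no called member changed direction, and of 617 values of tested members 537 stayed on their side of the threshold, 67 lost the call and 13 gained it. The count of members called higher was 4 and fell to 2 with the median shift, where genes called higher over the array went from 4164 to 3620. It fell to 1 with no filter on dim probes, which also gave 7 members lower in place of 12. That setting tested 44702 genes and called 4711 over the array, in place of 23774 tested and 8274 called. The members' median of -0.13 was -0.21 when a gene's probes were averaged and -0.25 with every probe on its own. A replicate block gave 12685 genes called over the array and a slide block 12753. The replicate block changed the call of Socs1, Adar and Xaf1 among the members and of no other tested member. When arrays or both arrays of a number were left out, the members called higher ranged from 0 to 5, those called lower from 3 to 12, their median from -0.30 to -0.12 and the genes called over the array from 1781 to 9112. The lowest counts came without both arrays of replicate 3. Of single arrays, leaving out control replicate 3 moved the count over the array most (5176). Differences of Irf7, Oas1a, Gbp3 and Ifit3 were smaller with normexp background, which changed the method, the spot signal and the offset together. The cause was not tested.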
